A study of Triticum aestivum with 12 samples.

Results

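The salt response of shoots of bread wheat (Triticum aestivum, Najran cultivar) was measured in 6 of the 12 RNA-Seq libraries, as 3 salt-treated shoots (200 mM NaCl) against 3 control shoots (0 mM NaCl, tap water). A gene was taken in where 3 or more of the 6 shoot libraries held 10 or more normalized counts of it, which was so for 44647 of the 83486 genes in the table, and the choice used no fold change. All plants shared the Najran genotype and were grown for 4 weeks from germination, and each library was made from poly(A) RNA of a duplicate of plants harvested at midday. The other 6 libraries were roots of the same treatments, and they are used here only where the shoot response is set against that of roots.

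Salt in the soil holds back water from a plant and later brings sodium and chloride into its leaves. Plants are known to answer by building up compatible solutes such as proline and sugars, by making protective proteins such as dehydrins and chaperones, often under the control of abscisic acid (ABA), and by slowing leaf growth and photosynthesis. Bread wheat carries 3 related subgenomes (A, B and D), so most genes have near-identical copies, called homoeologues, between which sequencing reads can be split wrongly.

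The normalized counts of a library summed to 18565098 to 19748450 in salt-treated shoots and to 20513240 to 25371113 in control shoots, with control replicate 1 the highest. By the paper's quality values, control replicate 1 also had the lowest RNA integrity number and the lowest share of mapped reads of all 12 libraries. What RNA quality and mapping did to the shoot comparison was not tested. The 100 genes with the highest mean took 17.9% to 21.2% of the counts in salt-treated shoots and 21.5% to 29.7% in control shoots. The step between low values put 1 read at 1.08 to 1.23 normalized counts in salt-treated shoots and at 0.954 to 1.62 in control shoots. The labelled organ held up against its markers, since the 65 genes described as chlorophyll a-b binding proteins summed to 372260 to 439904 normalized counts in salt-treated shoots and to 287955 to 498174 in control shoots, and to at most 935 in any root library. Genes for histones, cyclins, kinesins and DNA replication, a list for dividing tissue, summed to 9319 to 9579 in salt-treated shoots and to 9317 to 9582 in control shoots. A list for infection (15 genes for chitinases, Wheatwin and thaumatin) summed to 1990.0 to 4627 in salt-treated shoots and to 2809 to 4060 in control shoots. No gene of these lists was at 0 in all 6 shoot libraries.

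Differentially expressed genes (DEGs) had to pass limma at a Benjamini-Hochberg adjusted p under 0.01 and to move by 1 or more on the log2 scale. By this rule 2359 genes (5.28% of those tested) were called, of which 1026 were up-regulated (2.3%) and 1333 down-regulated (2.99%). Down-regulated genes made up 56.5% of the DEGs with the deposited normalization and 39.0% after all libraries were brought to a common total, a scaling under which the median over all tested genes was 0.19 in place of -0.01 on the log2 scale. The changes ran further upward than downward. The median log2 fold change was 2.29 among up-regulated and -1.77 among down-regulated DEGs, and 230 up-regulated genes but 111 down-regulated genes moved by at least 4 on the log2 scale. In 30 up-regulated genes all 3 control libraries were listed at 0, and in 18 down-regulated genes all 3 salt-treated libraries were. The groups did not overlap in any DEG, as they did not in 36.5% of all genes tested. Leaving out 1 library gave 1017, 1581 and 1441 DEGs without salt-treated replicates 1, 2 and 3, and 1592, 873 and 1039 without control replicates 1, 2 and 3.

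A description of function came with 4204 of the tested genes, and 492 of these were DEGs (11.7%), 232 up-regulated (5.52%) and 260 down-regulated (6.18%). Descriptions were deposited only for genes the authors had called in at least 1 comparison of these libraries, so the counts by function given here describe and are no independent evidence. A family member called in no comparison had no description and is missing, so all genes of a family means all described ones. Genes were sorted by description into 37 groups, which held 322 of the 492. Some groups were called below the 11.7% of all described genes. Among them were dirigent proteins and laccases (11.3%), ion and water transport (10.8%), pectin enzymes (9.30%), antioxidants (9.09%), proteases (8.49%) and expansins and xyloglucan enzymes (7.94%). Transcription factors (13.4%) and protein kinases (14.3%) were little above it. Counts near that share are not read as a response of the group. Calls of single genes held with each of the 6 shoot libraries left out in turn, wherever the gene could still be tested, unless a loss is stated. Genes near 0 in control shoots could not be tested without a salt-treated library, nor genes near 0 in salt-treated shoots without a control library, because the minimum of 10 had to be met in 3 libraries.

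**Figure D1:**
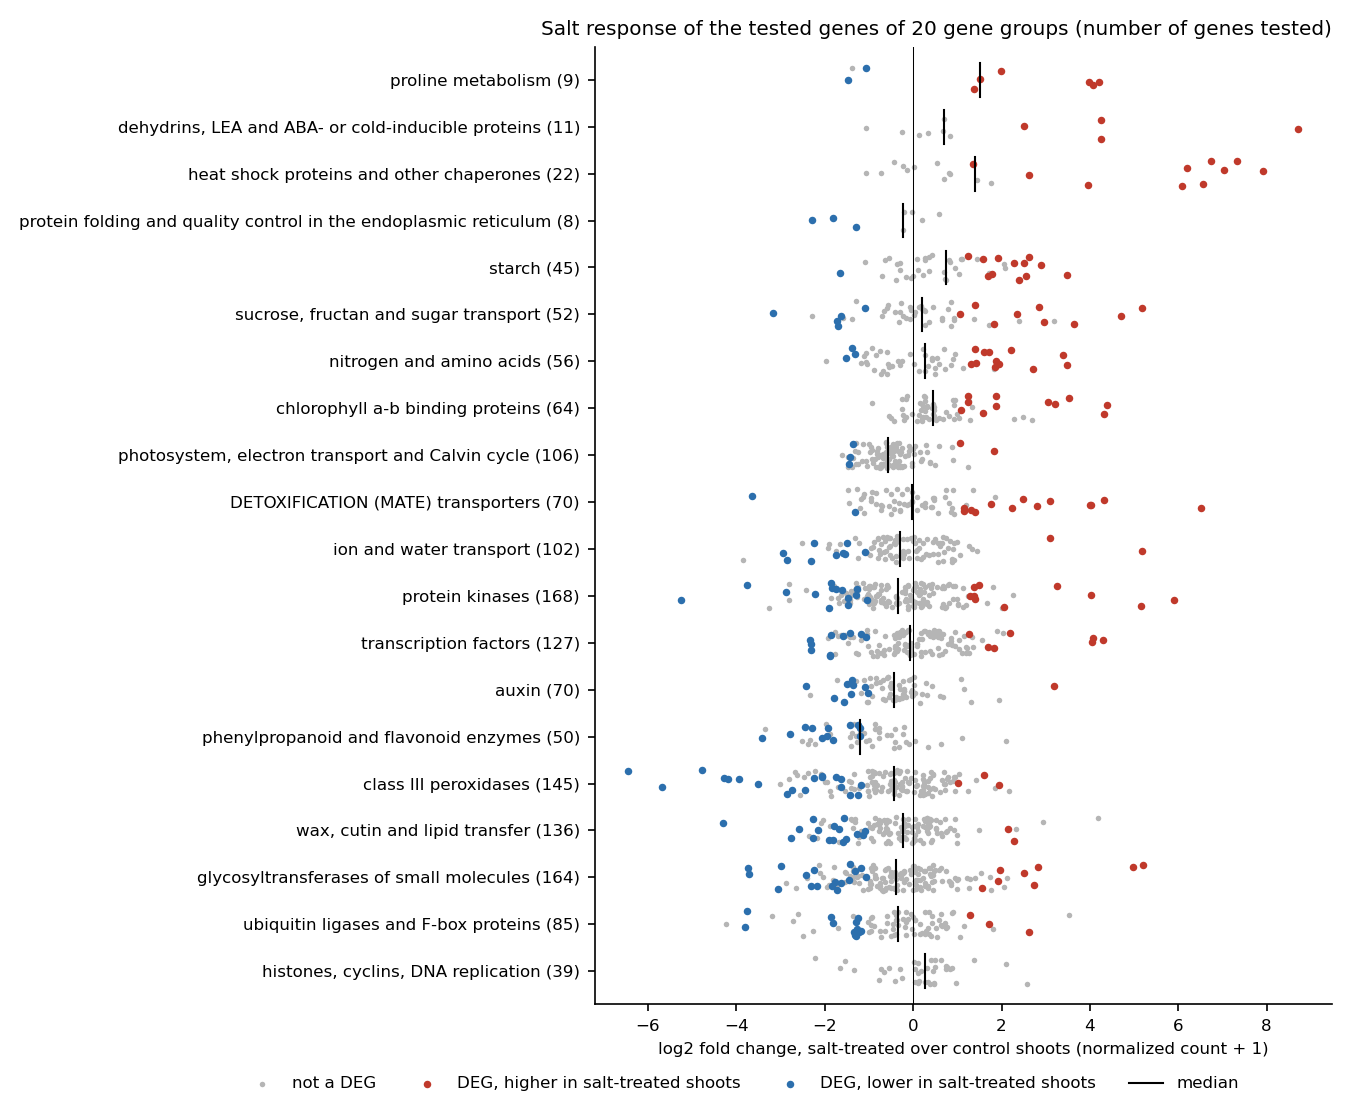
Log2 fold change (salt-treated over control shoots, horizontal axis) of every tested gene in 20 groups of genes sorted by description, with red points for up-regulated DEGs, blue points for down-regulated DEGs, grey points for genes not called and a black line for the group median. Proline and chaperone genes lie mostly to the right, with medians of 1.51 and 1.40, and phenylpropanoid genes mostly to the left, with a median of -1.20.

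Genes for making proline, the amino acid that plants store as a compatible solute, rose by up to 4.20 on the log2 scale, and those for breaking it down were lower. Of the 9 tested genes of proline metabolism, 6 were up-regulated and 2 down-regulated. All 4 genes described as delta-1-pyrroline-5-carboxylate synthase (P5CS), the rate-limiting first step from glutamate to proline, rose. The P5CS gene TraesCS3A02G363700 (chromosome 3A, 611964689 to 611971232, plus strand) had 8204, 6824 and 6135 normalized counts in salt-treated shoots, against 477, 486 and 310.3 in control shoots. Its highest control library lay far below its lowest salt-treated library, with a log2 fold change of 4.07 ± 0.21 (SE; limma, adjusted p = 6.46e-05). Its homoeologue TraesCS3B02G395900 (chromosome 3B, 623824481 to 623830911, plus strand) had 8677, 6920.3 and 7368 normalized counts in salt-treated shoots, against 475, 578 and 259 in control shoots, a log2 fold change of 4.20 ± 0.28 (adjusted p = 0.000138). The D copy TraesCS3D02G357200 was called at 267, 136 and 180.4 normalized counts in salt-treated shoots, against 11.4, 25.7 and 4.25 in control shoots. Its log2 fold change of 3.97 ± 0.55 came close to those of the A and B copies, but the call was lost without salt-treated replicate 1 or 3 or control replicate 1 (adjusted p between 0.0107 and 0.0155). The fourth gene, TraesCS1B02G290600, changed less and within a narrow spread, with 2025, 2111 and 2081 normalized counts in salt-treated shoots, against 757, 913 and 719 in control shoots (log2 fold change 1.39 ± 0.14, adjusted p = 0.000726). TraesCS1B02G290600 and TraesCS3D02G357200 were named after their values were seen.

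The second enzyme of the route, pyrroline-5-carboxylate reductase, had 2 tested genes and both were up-regulated. TraesCS3B02G538100 stood at 800.0, 714 and 772 normalized counts in salt-treated shoots, against 192, 186 and 193 in control shoots, so that each group was tight around its own level (log2 fold change 2.00 ± 0.13, adjusted p = 0.000138). TraesCS3D02G483400 rose by 1.51 ± 0.26 on the log2 scale, and the call was lost without salt-treated replicate 1, 2 or 3 or control replicate 1, 2 or 3 (adjusted p between 0.0136 and 0.0312). Proline dehydrogenase, the mitochondrial enzyme that begins proline breakdown, was lower in all 3 of its genes. TraesCS1A02G209100 had 524, 881 and 880.3 normalized counts in salt-treated shoots, against 1607, 2293 and 2376 in control shoots, without overlap (log2 fold change -1.48 ± 0.24, adjusted p = 0.00624), although the call was lost without salt-treated replicate 1, 2 or 3 or control replicate 2 or 3 (adjusted p between 0.0112 and 0.0304). TraesCS1B02G223300 had 893, 1036 and 1032 normalized counts in salt-treated shoots, against 1716, 2423 and 2160.3 in control shoots (log2 fold change -1.08 ± 0.16, adjusted p = 0.00438), and here the call was lost without salt-treated replicate 1, 2 or 3 or control replicate 2 or 3 (adjusted p between 0.0137 and 0.0209, log2 fold change down to -0.97). The D copy TraesCS1D02G212400, at 102, 203 and 172 normalized counts in salt-treated shoots, against 265, 497 and 488 in control shoots, missed the threshold (log2 fold change -1.39 ± 0.32, adjusted p = 0.0236). None of the 3 was called after scaling to the same total, while the 6 increases of the group were. The increases numbered 4, 5 and 4 without salt-treated replicates 1, 2 and 3, and 4, 5 and 5 without control replicates 1, 2 and 3. The decreases numbered 0, 0 and 0 without salt-treated replicates 1, 2 and 3, and 2, 0 and 0 without control replicates 1, 2 and 3. TraesCS1D02G212400, TraesCS3B02G538100 and TraesCS3D02G483400 were named after their values were seen.

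**Figure D2:**
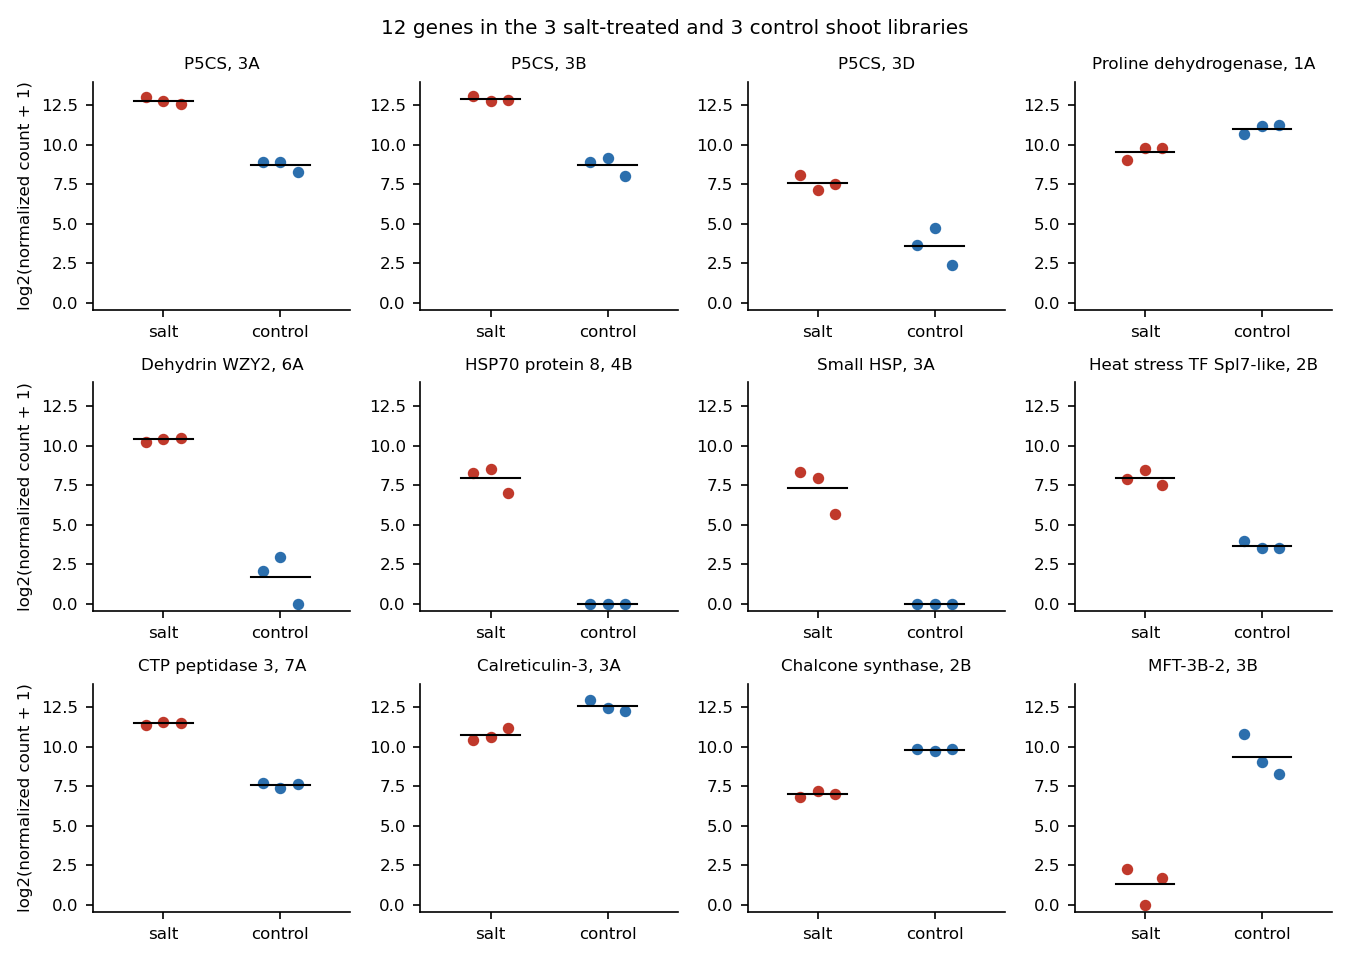
Normalized counts (vertical axis, log2 scale of the value plus 1) of 12 genes in each library, with the 3 salt-treated shoots left of the 3 control shoots in every panel and a line at the mean of each group on that scale. The groups do not overlap in any panel, and control replicate 1 is the highest control library for MFT-3B-2 (1745, against 514 and 310).

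Dehydrins and related proteins that bind water and membranes during drying or cold had 11 tested genes, of which 4 rose and none fell. Dehydrin WZY2 (TraesCS6A02G350700; chromosome 6A, 582516436 to 582517359, plus strand) had 1205, 1398 and 1448 normalized counts in salt-treated shoots, against 3.25, 6.66 and 0 in control shoots. A gene described only as a Rab protein, TraesCS6B02G383500 (chromosome 6B, 658402976 to 658404180, plus strand), which is not counted among the 11, behaved alike, with 880.4, 833 and 1243 normalized counts in salt-treated shoots, against 6.5, 7.65 and 0 in control shoots. Both were near 0 in every control shoot and high in every salt-treated shoot, with log2 fold changes of 8.72 ± 0.64 (adjusted p = 0.000192) and 7.92 ± 0.74 (adjusted p = 0.000505). A gene described as cold regulated, TraesCS1D02G296500, had 213, 237 and 193 normalized counts in salt-treated shoots, against 17.9, 9.52 and 6.35 in control shoots (log2 fold change 4.24 ± 0.35, adjusted p = 0.000312). TraesCS2A02G460600, described as cold-responsive, had a clear level in control shoots too, with 408, 461 and 708 normalized counts in salt-treated shoots, against 101, 78.5 and 89.7 in control shoots (log2 fold change 2.50 ± 0.23, adjusted p = 0.000468). ABA is known to induce many such genes, and TraesCS1B02G381500, described as ABA inducible, was at 29.5, 35.7 and 32.1 normalized counts in salt-treated shoots, against 1.63, 0 and 1.06 in control shoots. With no control library above 3 normalized counts its salt-treated mean was at least 10.8-fold higher (adjusted p = 0.00231). Such bounds, here and below, divide the mean of the higher group by 3, so a single library can give less. The count of 4 was 2, 2 and 2 without salt-treated replicates 1, 2 and 3, and 4, 4 and 4 without control replicates 1, 2 and 3. TraesCS1D02G296500 and TraesCS2A02G460600 were named after their values were seen.

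Chaperones, which keep proteins folded under heat and other stress, had 22 tested genes, of which 10 rose and none fell, with a median log2 fold change of 1.40. HSP90 TraesCS2A02G033700 had 347, 745 and 169.7 normalized counts in salt-treated shoots, against 4.88, 0.951 and 2.12 in control shoots. Salt-treated replicate 3 was the lowest of its group, as in the HSP70 and small heat shock protein genes given next, and the log2 fold change was 6.75 ± 0.59 (adjusted p = 0.000369). HSP90 TraesCS7B02G149200 had a clear level in both groups and rose less, with 2151, 3128 and 2238 normalized counts in salt-treated shoots, against 942, 914 and 1035 in control shoots (log2 fold change 1.36 ± 0.17, adjusted p = 0.00199), and the call was lost without control replicate 2 (adjusted p = 0.0128). The HSP70 gene for heat shock 70 kDa protein 8, TraesCS4B02G243400 (chromosome 4B, 504932830 to 504936559, plus strand), had 309, 359 and 127 normalized counts in salt-treated shoots and was listed at 0 in all 3 control shoots. Against a floor of 3 counts its salt-treated mean was at least 88.3-fold higher (adjusted p = 9.11e-05). TraesCS7B02G149200 was named after its values were seen.

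Small heat shock proteins, which hold unfolded proteins until HSP70 can refold them, showed the same pattern of presence against near absence. TraesCS3A02G033900 had 327, 243 and 50.3 normalized counts in salt-treated shoots and 0 in each control shoot. Its salt-treated mean was at least 68.9-fold higher, though replicate 3 lay well under that mean. The chloroplast form TraesCS4B02G225400 had 231, 315 and 57.7 normalized counts in salt-treated shoots, against 0, 0.951 and 0 in control shoots. Here too the mean was at least 67.1-fold higher and replicate 3 lay well under it. Hsp23.6 (TraesCS7A02G177500) was the exception with a clear control level, at 428, 474 and 335 normalized counts in salt-treated shoots, against 74.8, 51.4 and 74.2 in control shoots (log2 fold change 2.61 ± 0.22, adjusted p = 0.00031). The 15.7 kDa peroxisomal form TraesCS7A02G202200 rested on few counts, at 28.3, 21 and 10.8 normalized counts in salt-treated shoots, against 0, 0 and 1.05 in control shoots, and the call was lost without control replicate 1, 2 or 3 (adjusted p between 0.0143 and 0.0245). The count of 10 was 2, 2 and 2 without salt-treated replicates 1, 2 and 3, and 9, 8 and 9 without control replicates 1, 2 and 3, where only 14 of the 22 could be tested without salt-treated replicate 1. TraesCS7A02G177500 and TraesCS7A02G202200 were named after their values were seen.

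Heat stress and heat-responsive transcription factors, which switch on chaperone genes, had 5 tested genes and 4 of them rose. TraesCS2B02G419600, described as similar to the factor Spl7, had 238, 347 and 185 normalized counts in salt-treated shoots, against 14.6, 10.5 and 10.6 in control shoots (log2 fold change 4.29 ± 0.29, adjusted p = 0.000158). TraesCS7A02G270100 had 559, 608 and 284 normalized counts in salt-treated shoots, against 26.3, 21.4 and 33.2 in control shoots, again with the lowest salt-treated value in replicate 3 (log2 fold change 4.06 ± 0.32, adjusted p = 0.000237). TraesCS2A02G401600 rose by 4.05 ± 0.35 on the log2 scale (adjusted p = 0.000352). TraesCS1A02G375600, factor A6e, stood at 419, 859 and 774 normalized counts in salt-treated shoots, against 119, 138 and 176 in control shoots, and the call was lost without control replicate 2 (adjusted p = 0.0132). Proteins that fold others in the endoplasmic reticulum went the other way, with none of 8 tested genes up-regulated and 3 down-regulated. These 3 were the copies of calreticulin-3, a calcium-binding chaperone that acts on glycoproteins. The A copy TraesCS3A02G399000 had 1359, 1596 and 2302 normalized counts in salt-treated shoots, against 7918, 5467 and 5004 in control shoots, every control library lying above the highest salt-treated one (log2 fold change -1.81 ± 0.24, adjusted p = 0.00262), and the call was lost without salt-treated replicate 1 or control replicate 2 (adjusted p between 0.0121 and 0.0123). For the B copy TraesCS3B02G432000 the values were 1926, 2051 and 2417 normalized counts in salt-treated shoots, against 6307, 4665 and 4795 in control shoots (log2 fold change -1.29 ± 0.17), and the call was lost without salt-treated replicate 1 or 2 or control replicate 3 (adjusted p between 0.0103 and 0.0139). The D copy TraesCS3D02G393200 moved by -2.28 ± 0.42 on the log2 scale, where the call was lost without salt-treated replicate 1 or 3 or control replicate 1, 2 or 3 (adjusted p between 0.0184 and 0.0432). The 3 decreases numbered 0, 2 and 2 without salt-treated replicates 1, 2 and 3, and 2, 1 and 1 without control replicates 1, 2 and 3. TraesCS1A02G375600, TraesCS2A02G401600 and TraesCS3B02G432000 were named after their values were seen.

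Among genes for sucrose, fructan and sugar transport, 9 of 52 tested rose and 5 fell. Sucrose synthase, which cleaves sucrose for use in sink tissues, was higher in all 9 tested genes and called in 4, with a median of 1.07. TraesCS4A02G140000 had 2006, 2315 and 1983 normalized counts in salt-treated shoots, against 288, 321 and 269.9 in control shoots, with little spread in either group (log2 fold change 2.84 ± 0.14, adjusted p = 6.46e-05). SWEET genes, for uniporters that let sugars out of cells, split by member, with 3 of 33 up-regulated and 4 down-regulated. SWEET TraesCS7B02G050500 had 2389.9, 1782 and 1191 normalized counts in salt-treated shoots, against 130.1, 148 and 131 in control shoots, more than the control level in every library (log2 fold change 3.65 ± 0.24, adjusted p = 0.000138). SWEET TraesCS1B02G147200 was at 59, 43.1 and 91.9 normalized counts in salt-treated shoots, against 1.62, 0.95 and 0 in control shoots, at least 21.6-fold higher. In the other direction, SWEET TraesCS3B02G441800 had 314, 355 and 254 normalized counts in salt-treated shoots, against 1052, 1005 and 984 in control shoots (log2 fold change -1.73 ± 0.16, adjusted p = 0.000457). SWEET TraesCS3A02G255300 fell further, at 8.62, 20.9 and 27.8 normalized counts in salt-treated shoots, against 142, 162 and 192 in control shoots (log2 fold change -3.17 ± 0.40), and the call was lost without control replicate 2 or 3 (adjusted p between 0.0119 and 0.0127). TraesCS4A02G140000 and TraesCS7B02G050500 were named after their values were seen.

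Sucrose-phosphate synthase, which makes sucrose, had a small but clear case in TraesCS3A02G425500, at 65.3, 79.8 and 117 normalized counts in salt-treated shoots, against 9.76, 7.6 and 13.8 in control shoots (log2 fold change 2.95 ± 0.35, adjusted p = 0.00147). The fructan enzyme sucrose:fructan 6-fructosyltransferase (TraesCS4A02G485400) was at 7616, 7913 and 8479 normalized counts in salt-treated shoots, against 1386, 2546 and 3155 in control shoots, without overlap (log2 fold change 1.84 ± 0.28, adjusted p = 0.00441), but the call was lost without salt-treated replicate 1, 2 or 3 or control replicate 2 (adjusted p between 0.0135 and 0.0173). The increases numbered 5, 4 and 4 without salt-treated replicates 1, 2 and 3, and 6, 6 and 6 without control replicates 1, 2 and 3. The decreases numbered 3 after scaling to the same total, and 3, 3 and 3 without salt-treated replicates 1, 2 and 3, and 2, 1 and 1 without control replicates 1, 2 and 3. Of 4 genes for raffinose sugars 1 rose, galactinol-sucrose galactosyltransferase TraesCS7B02G134600 at 337, 418 and 253 normalized counts in salt-treated shoots, against 115, 118 and 158 in control shoots, and the call was lost without salt-treated replicate 1 or 2 or control replicate 1, 2 or 3 (adjusted p between 0.0129 and 0.0314). None of 10 trehalose genes was called, and 1 fell with the replicate number as a block. TraesCS3A02G425500 and TraesCS4A02G485400 were named after their values were seen.

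Starch genes leaned upward, with 12 of 45 tested up-regulated, 1 down-regulated and a median of 0.74. ADP-glucose pyrophosphorylase, the committed step of starch synthesis, was higher in all 8 genes and called in 4. TraesCS5B02G175800 had 856, 730.3 and 566 normalized counts in salt-treated shoots, against 135, 131 and 168 in control shoots (log2 fold change 2.29 ± 0.19, adjusted p = 0.000322). TraesCS1B02G449700 had 566, 519.7 and 431 normalized counts in salt-treated shoots, against 122, 122 and 152 in control shoots, also without overlap (log2 fold change 1.93 ± 0.17, adjusted p = 0.000434). The largest change of the enzyme was in TraesCS5D02G182600, at 206, 127 and 83.3 normalized counts in salt-treated shoots, against 6.51, 7.61 and 23.4 in control shoots, which moved by 3.49 ± 0.51 on the log2 scale, and the call was lost without salt-treated replicate 1 or 2 or control replicate 1 or 2 (adjusted p between 0.0121 and 0.0191). Starch synthase, which extends the glucan chains, rose in 3 of 11 genes. TraesCS2A02G373600 had 1298, 1025 and 879 normalized counts in salt-treated shoots, against 221, 165 and 219 in control shoots (log2 fold change 2.39 ± 0.19, adjusted p = 0.000262). Beta-amylase, which cleaves maltose from starch, rose in 2 genes and fell in 1 of 11. TraesCS5A02G513200 had 288, 289 and 342 normalized counts in salt-treated shoots, against 34.2, 79.9 and 41.4 in control shoots (log2 fold change 2.63 ± 0.30, adjusted p = 0.00136), and TraesCS4B02G344300 had 473, 717 and 937 normalized counts in salt-treated shoots, against 94.3, 128 and 141 in control shoots (log2 fold change 2.50 ± 0.27). The one that fell, TraesCS2A02G215300, had 115, 184 and 128 normalized counts in salt-treated shoots, against 543, 375 and 414 in control shoots (log2 fold change -1.65 ± 0.23), where the call was lost without salt-treated replicate 1 or 3 or control replicate 2 or 3 (adjusted p between 0.0107 and 0.0126). Under scaling to the same total 18 starch genes were up-regulated. With 1 library left out the 12 increases numbered 7, 9 and 11 without salt-treated replicates 1, 2 and 3, and 13, 7 and 9 without control replicates 1, 2 and 3. TraesCS1B02G449700, TraesCS2A02G373600, TraesCS4B02G344300, TraesCS5A02G513200 and TraesCS5B02G175800 were named after their values were seen.

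Nitrogen and amino acid metabolism had 13 of 56 tested genes up-regulated and 3 down-regulated, and some families had members called in opposite directions. Glutamine synthetase (GS), which fixes ammonium into glutamine, rose in 4 of 9 genes and fell in 2. GS TraesCS4A02G063800 had 1825, 2175 and 1634 normalized counts in salt-treated shoots, against 419.6, 433 and 361 in control shoots (log2 fold change 2.21 ± 0.16, adjusted p = 0.000176). The genes that fell were a homoeologous pair. TraesCS6A02G298100 had 3599, 4566 and 3974 normalized counts in salt-treated shoots, against 12044, 10564 and 9294 in control shoots (log2 fold change -1.39 ± 0.17, adjusted p = 0.00182), and the call was lost without salt-treated replicate 1 or control replicate 2 (adjusted p between 0.0107 and 0.0115). TraesCS6B02G327500 had 3761, 4389 and 4257 normalized counts in salt-treated shoots, against 12002, 9584 and 9311 in control shoots (log2 fold change -1.31 ± 0.17), and the call was lost without salt-treated replicate 1 (adjusted p = 0.0132). GS TraesCS4B02G047400 was at 57.9, 171 and 338 normalized counts in salt-treated shoots, against 11.4, 16.2 and 10.6 in control shoots, so its salt-treated libraries themselves spread widely (log2 fold change 3.48 ± 0.57), and the call was lost without salt-treated replicate 2 or 3 or control replicate 1, 2 or 3 (adjusted p between 0.0126 and 0.0254). TraesCS4A02G063800 and TraesCS6B02G327500 were named after their values were seen.

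Glutamate dehydrogenase, which releases or fixes ammonium at glutamate, was called in 2 of 4 genes, both up. TraesCS2B02G409300 had 924, 849.9 and 779.8 normalized counts in salt-treated shoots, against 283, 328 and 235 in control shoots (log2 fold change 1.60 ± 0.16, adjusted p = 0.000777). TraesCS2A02G389900 had 1286, 1367 and 1173 normalized counts in salt-treated shoots, against 465, 573 and 426 in control shoots (log2 fold change 1.39 ± 0.15, adjusted p = 0.00112). Glutamate decarboxylase (GAD), which makes gamma-aminobutyric acid, rose in 2 of 6 genes and fell in 1. GAD TraesCS4A02G075600 had 268, 218 and 220.0 normalized counts in salt-treated shoots, against 22.8, 39 and 46.7 in control shoots (log2 fold change 2.72 ± 0.28, adjusted p = 0.000804). GAD TraesCS4B02G052300, by contrast, had 1464, 1599 and 2061 normalized counts in salt-treated shoots, against 5982, 5018 and 3770.5 in control shoots (log2 fold change -1.52 ± 0.21), though the call was lost without salt-treated replicate 1 or 2 or control replicate 2 (adjusted p between 0.0113 and 0.0164). Ornithine aminotransferase, an alternative source of the proline precursor, rose in TraesCS5A02G375000 at 1137, 1128 and 1632 normalized counts in salt-treated shoots, against 559, 377 and 213 in control shoots, and the call was lost without salt-treated replicate 1, 2 or 3 or control replicate 2 or 3 (adjusted p between 0.0144 and 0.0319). With 1 library left out the 13 increases numbered 11, 9 and 10 without salt-treated replicates 1, 2 and 3, and 11, 9 and 9 without control replicates 1, 2 and 3. The 3 decreases numbered 0, 2 and 3 without salt-treated replicates 1, 2 and 3, and 3, 1 and 3 without control replicates 1, 2 and 3. TraesCS2A02G389900, TraesCS2B02G409300, TraesCS4A02G075600 and TraesCS5A02G375000 were named after their values were seen.

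In the chloroplast, light-harvesting genes leaned upward, while photosystem, electron transport and Calvin cycle genes leaned downward with few calls. Of 64 tested genes for chlorophyll a-b binding proteins, the antennae of the photosystems, 52 were higher in salt-treated shoots, 11 were up-regulated and none was down-regulated, with a median of 0.45. TraesCS6A02G094500 (chromosome 6A, 61418503 to 61419535, plus strand) had 238, 241 and 245 normalized counts in salt-treated shoots, against 13, 8.57 and 10.6 in control shoots, nearly the same value in each salt-treated library (log2 fold change 4.39 ± 0.24, adjusted p = 6.58e-05). TraesCS7B02G103300 had 628, 627 and 731 normalized counts in salt-treated shoots, against 104, 41.9 and 40.3 in control shoots, with control replicate 1 above the other controls (log2 fold change 3.53 ± 0.34, adjusted p = 0.000611). TraesCS5A02G350600 had 14700.2, 14788 and 12482 normalized counts in salt-treated shoots, against 5482, 3179 and 3201 in control shoots (log2 fold change 1.87 ± 0.24), and the call was lost without salt-treated replicate 1 or control replicate 2 or 3 (adjusted p between 0.0106 and 0.012). The 11 increases numbered 5, 7 and 8 without salt-treated replicates 1, 2 and 3, and 13, 3 and 3 without control replicates 1, 2 and 3. In bulk tissue, fewer cells of a type and less RNA per cell cannot be told apart. TraesCS5A02G350600 and TraesCS7B02G103300 were named after their values were seen.

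Photosystem, electron transport and Calvin cycle genes had the opposite lean, with 90 of 106 lower in salt-treated shoots. Their median was -0.57, and -0.36 after scaling to the same total. Only 2 were up-regulated and 3 down-regulated, 4.72% of the group against 11.7% of all described genes. Of 31 tested genes for photosystem I or II proteins, 1 was up-regulated and 0 were down-regulated. The 3 decreases became 11 with the replicate number as a block. The photosystem II protein Psb28 (TraesCS3A02G360500) was up-regulated at 467, 357 and 469 normalized counts in salt-treated shoots, against 133, 97.2 and 131 in control shoots (log2 fold change 1.83 ± 0.19, adjusted p = 0.000882). Ferredoxin, the carrier that takes electrons from photosystem I, fell in TraesCS7A02G325500, at 1673, 1495 and 1556 normalized counts in salt-treated shoots, against 4294, 3497 and 5239 in control shoots (log2 fold change -1.44 ± 0.17, adjusted p = 0.00158). Its homoeologue TraesCS7B02G226200 had 1937, 1681 and 1535 normalized counts in salt-treated shoots, against 5058, 3621 and 5257 in control shoots (log2 fold change -1.42 ± 0.18), and the call was lost without control replicate 3 (adjusted p = 0.0115). Of the 23 genes for the Rubisco small chain, the enzyme that fixes carbon dioxide, 22 were lower and 1 was down-regulated. That gene, TraesCS2A02G067000, had 1674, 1611 and 1676 normalized counts in salt-treated shoots, against 5890.1, 3349 and 3947 in control shoots (log2 fold change -1.37 ± 0.21), and the call was lost without salt-treated replicate 1, 2 or 3 or control replicate 3 (adjusted p between 0.0153 and 0.0191). Together the 23 summed to 525329, 431629 and 432194 normalized counts in salt-treated shoots, against 1067058, 623291 and 695465 in control shoots, again highest in control replicate 1. With 1 library left out the 3 decreases of the whole group numbered 2, 2 and 2 without salt-treated replicates 1, 2 and 3, and 3, 3 and 1 without control replicates 1, 2 and 3, and the 2 increases 1, 1 and 1 without salt-treated replicates 1, 2 and 3, and 2, 1 and 1 without control replicates 1, 2 and 3. TraesCS2A02G067000 was named after its values were seen.

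Carboxyl-terminal-processing (CTP) peptidases of plants trim the D1 protein of photosystem II, and all 3 homoeologues described as chloroplastic CTP peptidase 3 rose. TraesCS7A02G228300 (chromosome 7A, 198780052 to 198785324, minus strand) had 2606, 3077 and 2858 normalized counts in salt-treated shoots, against 203, 167 and 196 in control shoots (log2 fold change 3.91 ± 0.14, adjusted p = 4.99e-05). TraesCS7B02G191400 had 2946, 3375 and 2795 normalized counts in salt-treated shoots, against 203, 141 and 211 in control shoots (log2 fold change 4.05 ± 0.18, adjusted p = 5.95e-05). For the D copy TraesCS7D02G226300 the values were 281, 296 and 287 normalized counts in salt-treated shoots, against 16.3, 17.1 and 10.6 in control shoots, with no overlap in any of the 3 genes (log2 fold change 4.23 ± 0.24, adjusted p = 7.68e-05). TraesCS7A02G228300 was named after its values were seen.

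Enzymes of the phenylpropanoid and flavonoid pathway, which starts from phenylalanine and feeds lignin and pigments, had no up-regulated gene among 50 tested and 12 down-regulated ones. The median was -1.20, and -0.99 after scaling to the same total. Chalcone synthase TraesCS2B02G038700 (chromosome 2B, 17881640 to 17883390, minus strand), the first step of flavonoid synthesis, had 112, 145 and 128 normalized counts in salt-treated shoots, against 909, 850.3 and 904 in control shoots. Both groups were tight and far apart (log2 fold change -2.79 ± 0.15, adjusted p = 6.58e-05). Phenylalanine ammonia-lyase (PAL), the entry enzyme, was lower in all 29 tested genes, with 6 called and a median of -1.42. PAL TraesCS2A02G380800 had 309, 549 and 541 normalized counts in salt-treated shoots, against 1648, 1546 and 1605 in control shoots (log2 fold change -1.82 ± 0.22, adjusted p = 0.00177), and the call was lost without control replicate 2 (adjusted p = 0.0107). PAL TraesCS1B02G048200 was near 0 in salt-treated shoots, at 1.23, 1.23 and 1.07 normalized counts in salt-treated shoots, against 29.3, 29.5 and 12.7 in control shoots, at least 7.94-fold lower, and the call was lost without salt-treated replicate 1, 2 or 3 (adjusted p between 0.0134 and 0.0175). With the replicate number as a block or after scaling 1 gene rose. The 12 decreases numbered 6, 13 and 8 without salt-treated replicates 1, 2 and 3, and 7, 4 and 4 without control replicates 1, 2 and 3. TraesCS2A02G380800 was named after its values were seen.

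Class III peroxidases, secreted enzymes that act on lignin and hydrogen peroxide, also fell more often than they rose, with 19 of 145 down-regulated and 3 up-regulated. TraesCS1A02G342000 had 0, 0 and 1.07 normalized counts in salt-treated shoots, against 122, 139.9 and 78.5 in control shoots, at least 37.8-fold lower (adjusted p = 0.000219). TraesCS1B02G354900 had 2.46, 13.5 and 12.8 normalized counts in salt-treated shoots, against 584, 414 and 385 in control shoots (log2 fold change -5.68 ± 0.53, adjusted p = 0.000497). TraesCS2B02G126200 had 8.62, 13.5 and 12.8 normalized counts in salt-treated shoots, against 281, 201 and 124 in control shoots, so its highest salt-treated value was well under its lowest control value (log2 fold change -3.95 ± 0.35, adjusted p = 0.000378). One of the genes that rose was TraesCS5A02G148600, at 358, 394 and 443 normalized counts in salt-treated shoots, against 106, 129 and 163 in control shoots (log2 fold change 1.59 ± 0.20), and the call was lost without control replicate 2 (adjusted p = 0.0109). After scaling to the same total 6 rose. The 19 decreases numbered 9, 14 and 12 without salt-treated replicates 1, 2 and 3, and 11, 5 and 9 without control replicates 1, 2 and 3. The 3 increases numbered 1, 1 and 1 without salt-treated replicates 1, 2 and 3, and 3, 0 and 1 without control replicates 1, 2 and 3.

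Dirigent proteins, which steer the coupling of lignin-type radicals, and laccases, which oxidize lignin monomers, were mixed, with 2 of 71 up-regulated and 6 down-regulated and a median of 0.01. The dirigent gene TraesCS4A02G431400 had 241, 387 and 559 normalized counts in salt-treated shoots, against 3.25, 5.71 and 0 in control shoots (log2 fold change 6.94 ± 0.67, adjusted p = 0.000611). The dirigent gene TraesCSU02G198000, on no assigned chromosome, went the other way at 0, 4.94 and 0 normalized counts in salt-treated shoots, against 117, 57.2 and 64.6 in control shoots (log2 fold change -5.40 ± 0.74), and the call was lost without salt-treated replicate 1 (adjusted p = 0.0104). The decreases numbered 2, 7 and 5 without salt-treated replicates 1, 2 and 3, and 2, 1 and 0 without control replicates 1, 2 and 3, and the increases 0, 0 and 0 without salt-treated replicates 1, 2 and 3, and 2, 1 and 2 without control replicates 1, 2 and 3.

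Of 63 genes for expansins and xyloglucan enzymes of the cell wall, 3 rose and 2 fell. Xyloglucan endotransglucosylase/hydrolases (XTHs), which cut and rejoin the xyloglucan that ties cellulose fibres, held the 3 increases, among 51 genes. XTH TraesCS2A02G433500 had 959, 1462 and 1369 normalized counts in salt-treated shoots, against 128, 50.4 and 23.3 in control shoots (log2 fold change 4.51 ± 0.52, adjusted p = 0.00132). XTH TraesCS2B02G454500 had 1658, 2195 and 2264 normalized counts in salt-treated shoots, against 190.3, 158 and 72.2 in control shoots (log2 fold change 3.95 ± 0.33, adjusted p = 0.000322). Control replicate 3 was the lowest library for both. Expansins, which loosen walls for growth, held the 2 decreases, among 10 genes. TraesCS1B02G310300 had 138, 218 and 139 normalized counts in salt-treated shoots, against 720.4, 1077 and 604 in control shoots (log2 fold change -2.26 ± 0.26, adjusted p = 0.00135). The increases numbered 2, 2 and 2 without salt-treated replicates 1, 2 and 3, and 3, 2 and 2 without control replicates 1, 2 and 3, and the decreases 1, 2 and 1 without salt-treated replicates 1, 2 and 3, and 1, 1 and 2 without control replicates 1, 2 and 3.

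Glucan endo-1,3-beta-glucosidases of the GII type, which break callose and similar glucans, fell in a pair of neighbouring genes. TraesCS3B02G524700 had 24.6, 24.6 and 48.1 normalized counts in salt-treated shoots, against 1833, 885 and 936 in control shoots (log2 fold change -5.18 ± 0.35, adjusted p = 0.000155). TraesCS3B02G524800 had 45.5, 48 and 105 normalized counts in salt-treated shoots, against 2734, 1964 and 1789 in control shoots (log2 fold change -5.09 ± 0.32, adjusted p = 0.000116). In both, salt-treated replicate 3 was the highest of its group and still far below every control library. Pectin enzymes fell in 4 of 43 genes and rose in none, against 2 and 1 after scaling to the same total, and the 4 were 1, 2 and 1 without salt-treated replicates 1, 2 and 3, and 3, 0 and 1 without control replicates 1, 2 and 3.

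Among wax, cutin and lipid transfer genes, 16 of 136 were down-regulated and 2 up-regulated. The decreases were mostly of 3-ketoacyl-CoA synthase (KCS), which elongates the fatty acids of cuticular wax, with 12 of 64 down-regulated and a median of -0.75. KCS TraesCS4B02G225500 had 351, 504 and 402 normalized counts in salt-treated shoots, against 1426, 1598 and 1289 in control shoots (log2 fold change -1.79 ± 0.17, adjusted p = 0.00059). KCS TraesCS6B02G098300, at 1209, 1944 and 1289 normalized counts in salt-treated shoots, against 5276, 5019.9 and 3799 in control shoots, was lower in each salt-treated library than in any control (log2 fold change -1.68 ± 0.22), and the call was lost without salt-treated replicate 1 or control replicate 2 (adjusted p between 0.011 and 0.0136). The genes that rose were for lipid transfer proteins. TraesCS4B02G393300, lipid transfer protein 2G, had 1422, 1318 and 1145 normalized counts in salt-treated shoots, against 296, 277 and 301 in control shoots (log2 fold change 2.14 ± 0.14, adjusted p = 0.00013). The 2 increases were 4 after scaling to the same total, and 2, 2 and 2 without salt-treated replicates 1, 2 and 3, and 4, 2 and 1 without control replicates 1, 2 and 3. The 16 decreases numbered 4, 14 and 8 without salt-treated replicates 1, 2 and 3, and 9, 2 and 7 without control replicates 1, 2 and 3. TraesCS4B02G225500 and TraesCS6B02G098300 were named after their values were seen.

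Genes of auxin, the growth hormone, were mostly lower, with 9 of 70 down-regulated and 1 up-regulated and a median of -0.44. Of the 9 decreases 8 were among the auxin-responsive proteins, of which 30 of 33 were lower, while none of 22 auxin response factors was called. TraesCS3A02G108400 had 151, 199 and 137 normalized counts in salt-treated shoots, against 615, 502 and 570.2 in control shoots (log2 fold change -1.80 ± 0.18, adjusted p = 0.000745). The exception TraesCS6A02G111900 had 70.1, 59.3 and 66.5 normalized counts in salt-treated shoots, against 9.75, 3.81 and 6.34 in control shoots (log2 fold change 3.19 ± 0.38, adjusted p = 0.00157). Scaled to the same total, 3 auxin genes were down-regulated. The 9 decreases were 3, 7 and 3 without salt-treated replicates 1, 2 and 3, and 3, 4 and 3 without control replicates 1, 2 and 3.

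Genes of ABA, ethylene, cytokinin and gibberellin had 3 of 43 up-regulated and 5 down-regulated. ABA 8'-hydroxylase, which inactivates ABA, rose in TraesCS5B02G236500 at 144, 268 and 226 normalized counts in salt-treated shoots, against 61.8, 72.3 and 73.3 in control shoots (log2 fold change 1.57 ± 0.25), and the call was lost without salt-treated replicate 2 or 3 or control replicate 1, 2 or 3 (adjusted p between 0.0174 and 0.0227). Gibberellin 2-oxidases, which inactivate gibberellins, moved in both directions. GA2ox-B4 (TraesCS1B02G347600) had 76.4, 88.6 and 43.8 normalized counts in salt-treated shoots, against 306, 319.6 and 475 in control shoots (log2 fold change -2.41 ± 0.29, adjusted p = 0.00172). GA2ox5-2 (TraesCS3B02G166100) had 268, 293 and 305 normalized counts in salt-treated shoots, against 127, 86.6 and 58.3 in control shoots (log2 fold change 1.73 ± 0.27), and the call was lost without salt-treated replicate 1, 2 or 3 or control replicate 2 or 3 (adjusted p between 0.0103 and 0.0229). The 5 decreases of these hormone genes numbered 3 after scaling to the same total, and 2, 3 and 3 without salt-treated replicates 1, 2 and 3, and 2, 2 and 1 without control replicates 1, 2 and 3, and the 3 increases 1, 0 and 0 without salt-treated replicates 1, 2 and 3, and 1, 0 and 0 without control replicates 1, 2 and 3. Lipoxygenase and jasmonate genes fell in 2 of 21, and none rose. Lipoxygenase TraesCS1A02G212900, an early step toward jasmonate, had 309, 389 and 407 normalized counts in salt-treated shoots, against 1062, 1036 and 1051 in control shoots (log2 fold change -1.52 ± 0.15, adjusted p = 0.000635). With the replicate number as a block 7 of the 21 fell and 1 rose, after scaling to the same total 1 fell, and with 1 library left out 1, 3 and 1 without salt-treated replicates 1, 2 and 3, and 1, 1 and 1 without control replicates 1, 2 and 3.

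Ion and water transport had 2 of 102 genes up-regulated and 9 down-regulated, with a median of -0.30. Both increases were of sulfate transporter 3.5. TraesCS3B02G323500 had 408, 679 and 377 normalized counts in salt-treated shoots, against 23.1, 11.3 and 6.48 in control shoots (log2 fold change 5.18 ± 0.43, adjusted p = 0.000301), and TraesCS3A02G288800 had 258, 403 and 193 normalized counts in salt-treated shoots, against 35.9, 35.1 and 23.5 in control shoots (log2 fold change 3.09 ± 0.31). Ammonium transporters fell in 3 of 4 genes. TraesCS2B02G383600 had 119, 166 and 146 normalized counts in salt-treated shoots, against 826, 597 and 642 in control shoots (log2 fold change -2.25 ± 0.19, adjusted p = 0.00032), and TraesCS2A02G365000 had 231, 305 and 308 normalized counts in salt-treated shoots, against 794, 733 and 908 in control shoots (log2 fold change -1.53 ± 0.17). The glutamate receptor TraesCS5B02G217500, of a family of calcium-permeable channels, had 48, 46.7 and 91.8 normalized counts in salt-treated shoots, against 415, 548 and 358 in control shoots (log2 fold change -2.85 ± 0.29, adjusted p = 0.000776). Potassium transporters, which matter under salt because sodium competes with potassium, were called in 2 of 25 genes. TraesCS3B02G481800 had 119, 84.8 and 115 normalized counts in salt-treated shoots, against 479.8, 295 and 319.8 in control shoots (log2 fold change -1.75 ± 0.23, adjusted p = 0.0025), and the call was lost without control replicate 3 (adjusted p = 0.0103). Scaled to the same total, 8 genes of the group were up-regulated, and the 2 increases numbered 2, 2 and 2 without salt-treated replicates 1, 2 and 3, and 5, 3 and 2 without control replicates 1, 2 and 3. The 9 decreases numbered 5, 7 and 10 without salt-treated replicates 1, 2 and 3, and 6, 5 and 4 without control replicates 1, 2 and 3. TraesCS2A02G365000, TraesCS2B02G383600 and TraesCS3B02G481800 were named after their values were seen.

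DETOXIFICATION proteins, exporters of the MATE family that move organic compounds out of the cytosol, had 13 of 70 genes up-regulated and 2 down-regulated around a median of -0.03, which was 0.17 after scaling to the same total. TraesCS4A02G245300 had 159, 177 and 243 normalized counts in salt-treated shoots, against 8.12, 0 and 0 in control shoots (log2 fold change 6.51 ± 0.81, adjusted p = 0.00185). TraesCSU02G003900, on no assigned chromosome, had 83.7, 86.1 and 148 normalized counts in salt-treated shoots, against 4.88, 6.66 and 2.12 in control shoots (log2 fold change 4.31 ± 0.43, adjusted p = 0.000728). In the other direction TraesCS7B02G137200 had 793, 969 and 965 normalized counts in salt-treated shoots, against 2366, 2074 and 2312 in control shoots (log2 fold change -1.31 ± 0.14, adjusted p = 0.000996). The 13 increases numbered 4, 6 and 4 without salt-treated replicates 1, 2 and 3, and 10, 6 and 8 without control replicates 1, 2 and 3. The 2 decreases were 1 after scaling to the same total or with any 1 library left out. Of 26 genes for metal binding and iron, 3 rose and 2 fell. The 3 became 1, 1 and 1 without salt-treated replicates 1, 2 and 3, and 3, 2 and 2 without control replicates 1, 2 and 3, and the 2 became 1, 2 and 1 without salt-treated replicates 1, 2 and 3, and 1, 0 and 1 without control replicates 1, 2 and 3. An iron-sulfur cluster assembly gene, TraesCS1A02G406300, had 389, 457 and 513 normalized counts in salt-treated shoots, against 40.6, 15.2 and 33.9 in control shoots (log2 fold change 3.98 ± 0.34, adjusted p = 0.000352). Its B copy TraesCS1B02G436500 was at 717, 789 and 1112 normalized counts in salt-treated shoots, against 0, 1.9 and 0 in control shoots, so nearly all of its counts lay in salt-treated shoots.

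Protein kinases, the enzymes that pass signals on by phosphorylation, had 10 of 168 genes up-regulated and 14 down-regulated. Called genes made up 14.3% of them, against 11.7% of all described genes. Kinases described as responding to hyperosmotic stress rose in 4 of 6 genes, with a median of 1.78. TraesCS2B02G521800 (chromosome 2B, 716809651 to 716816243, plus strand) had 428, 325 and 478 normalized counts in salt-treated shoots, against 4.88, 7.61 and 5.3 in control shoots (log2 fold change 5.89 ± 0.27, adjusted p = 5.95e-05). TraesCS2A02G493800, on the matching chromosome of the A subgenome, had 373, 421 and 429.6 normalized counts in salt-treated shoots, against 50.4, 52.3 and 27.6 in control shoots (log2 fold change 3.25 ± 0.26, adjusted p = 0.000258). TraesCS1B02G229400 had 244, 261 and 256 normalized counts in salt-treated shoots, against 76.4, 61.8 and 46.7 in control shoots (log2 fold change 2.05 ± 0.21, adjusted p = 0.000839), and TraesCS1A02G215900 had 182, 157 and 160.3 normalized counts in salt-treated shoots, against 61.8, 71.3 and 44.6 in control shoots (log2 fold change 1.50 ± 0.22), where the call was lost without salt-treated replicate 1, 2 or 3 or control replicate 2 or 3 (adjusted p between 0.0102 and 0.0206). TraesCS1A02G215900, TraesCS1B02G229400 and TraesCS2A02G493800 were named after their values were seen.

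Mitogen-activated protein kinases went the other way, all 9 being lower and 3 called, or 1 after scaling to the same total. TraesCS3B02G270200 had 447, 562 and 448 normalized counts in salt-treated shoots, against 1561, 1164 and 908 in control shoots (log2 fold change -1.29 ± 0.21), and the call was lost without salt-treated replicate 1, 2 or 3 or control replicate 1 or 2 (adjusted p between 0.0106 and 0.0263). A serine/threonine-protein kinase, TraesCS2B02G565000, was listed at 0 in all 3 salt-treated shoots and had 38.8, 35 and 37.7 normalized counts in control shoots, at least 12.4-fold lower. After scaling to the same total 13 protein kinase genes were up-regulated and 10 down-regulated. The 10 increases numbered 4, 5 and 6 without salt-treated replicates 1, 2 and 3, and 10, 6 and 7 without control replicates 1, 2 and 3, and the 14 decreases 6, 9 and 6 without salt-treated replicates 1, 2 and 3, and 5, 1 and 4 without control replicates 1, 2 and 3. TraesCS3B02G270200 was named after its values were seen.

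Transcription factors had 7 of 127 genes up-regulated, 4 of them the heat stress factors above, and 10 down-regulated, which became 8 up and 6 down after scaling to the same total. Together 13.4% were called, against 11.7% of all described genes. WRKY1A (TraesCS2B02G187500), of a family that controls defence and stress genes, had 92.3, 143 and 115 normalized counts in salt-treated shoots, against 787, 447 and 569.6 in control shoots (log2 fold change -2.34 ± 0.25, adjusted p = 0.000868). NAC6A (TraesCS5B02G054200), of a family tied to stress and senescence, had 206, 210.5 and 144 normalized counts in salt-treated shoots, against 91, 63.7 and 75.4 in control shoots (log2 fold change 1.27 ± 0.23), and the call was lost without salt-treated replicate 1 or 2 or control replicate 1, 2 or 3 (adjusted p between 0.0114 and 0.0373). The 7 increases numbered 4, 4 and 5 without salt-treated replicates 1, 2 and 3, and 6, 3 and 4 without control replicates 1, 2 and 3, and the 10 decreases 3, 9 and 5 without salt-treated replicates 1, 2 and 3, and 4, 2 and 3 without control replicates 1, 2 and 3. GIGANTEA, a clock protein that links day length to flowering, rose in all 3 genes so described. TraesCS3B02G135400 had 1387, 1595 and 1535 normalized counts in salt-treated shoots, against 334, 349 and 228 in control shoots (log2 fold change 2.33 ± 0.19, adjusted p = 0.000258). TraesCS3A02G116300 had 1279, 1310.4 and 1251 normalized counts in salt-treated shoots, against 306, 273 and 207 in control shoots, again without overlap (log2 fold change 2.30 ± 0.17, adjusted p = 0.000189). The D copy TraesCS3D02G118200 had 117, 104 and 141 normalized counts in salt-treated shoots, against 48.8, 21.9 and 24.4 in control shoots (log2 fold change 1.98 ± 0.33), and the call was lost without salt-treated replicate 1, 2 or 3 or control replicate 2 or 3 (adjusted p between 0.0157 and 0.0255). A CONSTANS-like gene, TraesCS6A02G286400, of the family through which GIGANTEA acts in Arabidopsis, had 158, 183 and 168 normalized counts in salt-treated shoots, against 574, 405 and 425 in control shoots (log2 fold change -1.44 ± 0.18, adjusted p = 0.00176). MFT-3B-2 (TraesCS3B02G007400), of a family known for its role in seed dormancy, was nearly lost in salt-treated shoots, at 3.69, 0 and 2.14 normalized counts in salt-treated shoots, against 1745, 514 and 310.4 in control shoots (log2 fold change -8.06 ± 0.73, adjusted p = 0.000444). TraesCS3D02G118200 and TraesCS5B02G054200 were named after their values were seen.

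The other groups gave fewer or mixed calls. Purple acid phosphatases, which release phosphate from organic compounds, had 3 of 30 genes up-regulated and 2 down-regulated, where the 2 were 1, 0 and 4 without salt-treated replicates 1, 2 and 3, and 1, 1 and 0 without control replicates 1, 2 and 3. TraesCS4B02G348600 had 6429, 13559 and 4378 normalized counts in salt-treated shoots, against 642, 685 and 275 in control shoots (log2 fold change 3.87 ± 0.46, adjusted p = 0.00154). Glycosyltransferases of small molecules had 8 of 164 up-regulated and 17 down-regulated. TraesCS5B02G398500 had 25.9, 17.2 and 18.2 normalized counts in salt-treated shoots, against 247, 243 and 351 in control shoots (log2 fold change -3.72 ± 0.25, adjusted p = 0.000155), while TraesCS3B02G598200 had 116, 169.6 and 154 normalized counts in salt-treated shoots, against 1.63, 4.75 and 3.18 in control shoots (log2 fold change 5.19 ± 0.38). The 17 decreases were 12, 16 and 14 without salt-treated replicates 1, 2 and 3, and 10, 8 and 11 without control replicates 1, 2 and 3. The 8 increases were 2, 2 and 3 without salt-treated replicates 1, 2 and 3, and 6, 2 and 6 without control replicates 1, 2 and 3. Ubiquitin ligases and F-box proteins, which mark proteins for breakdown, fell in 12 of 85 genes and rose in 3. The 12 became 6, 11 and 7 without salt-treated replicates 1, 2 and 3, and 8, 3 and 3 without control replicates 1, 2 and 3, and the 3 became 1, 2 and 2 without salt-treated replicates 1, 2 and 3, and 5, 1 and 2 without control replicates 1, 2 and 3. Glutathione, thioredoxin and other antioxidant genes had 4 of 66 up-regulated and 2 down-regulated, and the 4 became 11 after scaling to the same total. They were 1, 0 and 3 without salt-treated replicates 1, 2 and 3, and 6, 0 and 0 without control replicates 1, 2 and 3. The 2 decreases were 0 after scaling, and 2, 1 and 1 without salt-treated replicates 1, 2 and 3, and 0, 0 and 0 without control replicates 1, 2 and 3. None of the 7 catalase genes was called. Proteases had 5 of 106 up-regulated and 4 down-regulated, ribosomal proteins 1 and 1 of 52, and defence proteins such as chitinases 1 and 3 of 26. The 4 protease decreases were 2 after scaling to the same total, and 2, 4 and 3 without salt-treated replicates 1, 2 and 3, and 4, 2 and 2 without control replicates 1, 2 and 3. The 3 decreases of defence proteins were 0, 2 and 1 without salt-treated replicates 1, 2 and 3, and 0, 0 and 1 without control replicates 1, 2 and 3, and their increases numbered 1 without salt-treated replicate 2 and 0 without any other library. The decreases of ribosomal proteins numbered 1 without salt-treated replicate 1 and 0 without any other library. None of 39 genes for histones, cyclins and DNA replication and none of 21 for tubulin, kinesin and actin was called, and with the replicate number as a block 1 rose and 1 fell in the first list and 1 rose in the second.

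The 3 subgenomes were not equally measured. Of the genes in the table, 21.0% passed the filter on the D subgenome (4341 of 20700), against 66.5% on A and 65.4% on B. The D subgenome took 5.34% to 6.28% of the counts of a salt-treated library and 6.67% to 8.89% of a control library. Without TraesCS5D02G425100 and TraesCS5D02G010200, its highest genes, it took 2.34% to 2.41% in salt-treated and 2.22% to 2.36% in control shoots. The A subgenome then took 45.4% to 46.6% in salt-treated and 43.6% to 45.8% in control shoots. DEGs made up 2.51% of tested D genes (109), 5.70% of A genes (1132) and 5.52% of B genes (1085). The tested D genes were also lower, with a median level of 31.3 normalized counts in shoots, against 149 on A and 144 on B. The shares of DEGs were not compared at a like level. The low D share was present in every library of both groups, and its cause was not tested. All 3 copies were called for P5CS and CTP peptidase 3, where the log2 fold change of the D copy was close to the others, and for calreticulin-3, where the D copy was at -2.28 against -1.81 for A and -1.29 for B. Since reads can be split wrongly between homoeologues, a call of a D copy is not independent of the calls of A and B. Whether the D copies responded by themselves was not tested.

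**Figure D3:**
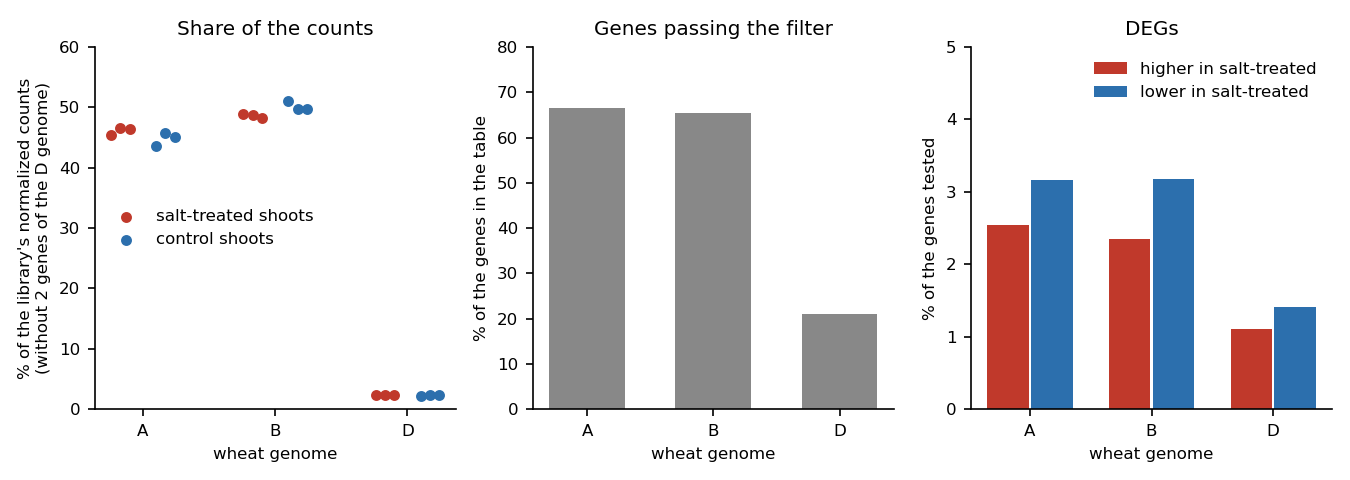
The A, B and D subgenomes in 3 panels. The left panel gives the percent of each library's normalized counts without 2 genes of the D subgenome (a point for each library, salt-treated shoots left of control shoots), the middle panel the percent of genes that passed the filter, and the right panel the percent of tested genes that were DEGs in each direction. The D subgenome is lowest in every panel, at 2.41% or less of the counts and 21.0% of genes passing.

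Part of the DEGs stood next to another DEG of the same direction. Of the 1014 up-regulated genes with a known chromosome, 144 (14.2%) had an adjacent tested gene called in the same direction, and of 1312 down-regulated genes 220 (16.8%) had one. Over all tested genes 2.3% were up-regulated and 2.99% down-regulated. How often neighbours would be called alike by position alone was not tested, so nothing is read from the number of neighbours or runs. There were 35 runs of 3 or more such genes. The longest, from TraesCS3B02G130300 to TraesCS3B02G131300, held 7 up-regulated genes without a description, with log2 fold changes of 6.12 to 8.12. The next, from TraesCS1B02G454000 to TraesCS1B02G454600, held 6 down-regulated genes between -7.41 and -3.79. Neighbouring genes can be copies of each other, between which reads are shared, and with a library kit that does not keep the strand, reads of overlapping genes cannot be told apart.

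Dehydrin WZY2 stood at the end of such a run on chromosome 6A. The 3 genes before it were TraesCS6A02G350400, a DETOXIFICATION gene with 158, 144 and 174 normalized counts in salt-treated shoots, against 40.7, 31.4 and 27.6 in control shoots (log2 fold change 2.23 ± 0.22), and 2 genes without description. TraesCS6A02G350500 had 329.9, 553 and 429 normalized counts in salt-treated shoots, against 6.5, 2.85 and 2.12 in control shoots (log2 fold change 6.58 ± 0.38), and TraesCS6A02G350600 had 2131, 2601 and 2512 normalized counts in salt-treated shoots, against 82.9, 128 and 92.1 in control shoots (log2 fold change 4.59 ± 0.19). The next 3 tested genes were not called, a pectinesterase (0.63), TraesCS6A02G351100 without description (-2.50 ± 1.15, adjusted p = 0.186) and a trehalose-phosphate synthase (0.18). Before the run TraesCS6A02G350200 was called, at 536, 491 and 421 normalized counts in salt-treated shoots, against 262, 198 and 184 in control shoots, and the call was lost without salt-treated replicate 1, 2 or 3 or control replicate 2 or 3 (adjusted p between 0.0101 and 0.0242). The tested genes on either side of it were higher too but missed the threshold. TraesCS6A02G350300, between it and the run, was at 3.69 ± 0.98 (limma, adjusted p = 0.0386), and TraesCS6A02G350100 at 1.81 ± 0.44 (adjusted p = 0.0294). On chromosome 6B the Rab protein gene stood in a like setting. Beside it TraesCS6B02G383600 had 4099, 3769 and 2876 normalized counts in salt-treated shoots, against 19.5, 8.57 and 8.47 in control shoots (log2 fold change 8.17 ± 0.31) and TraesCS6B02G383800 had 966, 1109.9 and 1493 normalized counts in salt-treated shoots, against 8.13, 1.9 and 1.06 in control shoots (log2 fold change 8.27 ± 0.51), with a pectinesterase gene between them that was not called (0.42). The DETOXIFICATION gene before them, TraesCS6B02G383300, rose by 1.14 ± 0.19, and the call was lost without salt-treated replicate 1, 2 or 3 or control replicate 1, 2 or 3 (adjusted p between 0.0106 and 0.0281). The tested gene before that, TraesCS6B02G383200, was at 1.50 ± 0.40 and was not called (limma, adjusted p = 0.0395).

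The P5CS genes of chromosomes 3A and 3B each followed a pair of up-regulated genes without description. On 3A these were TraesCS3A02G363400, with 1324, 1192 and 1286 normalized counts in salt-treated shoots, against 329, 352 and 426 in control shoots (log2 fold change 1.79 ± 0.15), and TraesCS3A02G363500 (log2 fold change 2.31 ± 0.38), for which the call was lost without control replicate 1, 2 or 3 (adjusted p between 0.0156 and 0.0224). On 3B they were TraesCS3B02G395600, with 822, 575 and 662 normalized counts in salt-treated shoots, against 107, 91.3 and 155 in control shoots (log2 fold change 2.55 ± 0.23), and TraesCS3B02G395700 (log2 fold change 1.67 ± 0.29), for which the call was lost without salt-treated replicate 1, 2 or 3 or control replicate 1, 2 or 3 (adjusted p between 0.0104 and 0.0318). The CASP-like gene before each pair was not called (0.11 on 3A and 0.04 on 3B). Called genes also stood apart from these runs. On 3A TraesCS3A02G362800 was at 2.46 ± 0.42, where the call was lost without salt-treated replicate 1, 2 or 3 or control replicate 1 or 2 (adjusted p between 0.0156 and 0.0316), and TraesCS3A02G364300 at 1.49 ± 0.24, where the call was lost without salt-treated replicate 1 or 3 or control replicate 2 or 3 (adjusted p between 0.0208 and 0.0252). On 3B TraesCS3B02G396400 was at 1.28 ± 0.24, where the call was lost without salt-treated replicate 1, 2 or 3 or control replicate 1, 2 or 3 (adjusted p between 0.0119 and 0.0364). The neighbours named here were chosen after their values were seen.

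**Figure D4:**
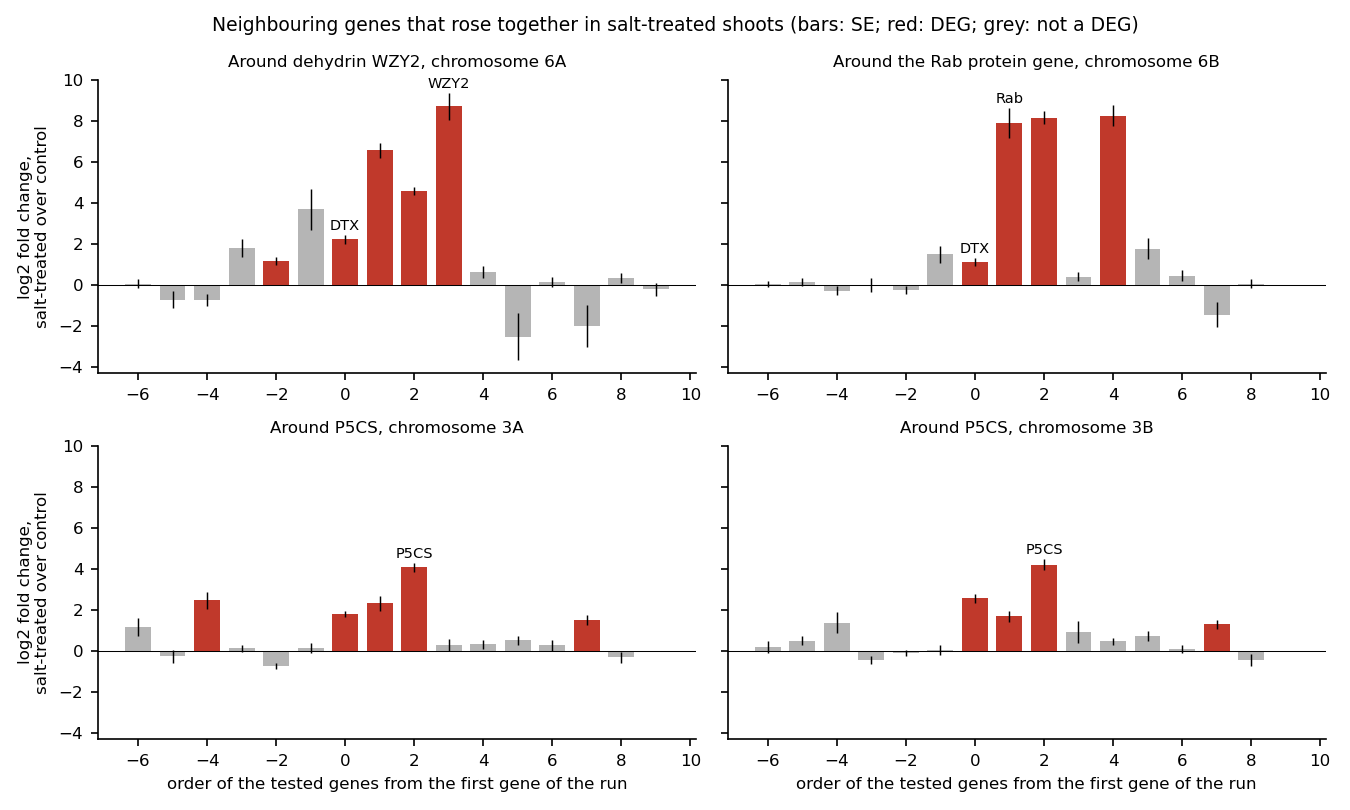
Log2 fold change (salt-treated over control shoots, vertical axis, bars with SE) of consecutive tested genes around dehydrin WZY2 on 6A, the Rab protein gene on 6B and P5CS on 3A and 3B, in chromosome order, with DEGs in red. WZY2 and the P5CS genes end a run of called genes, the pectinesterase gene after WZY2 is at 0.63, and single called genes stand apart from the runs, such as TraesCS3A02G362800 at 2.46.

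Set against roots, the shoot response differed for part of the DEGs. A test of the difference (salt effect in shoots minus salt effect in roots, limma with all 12 libraries, adjusted p under 0.01) was passed by 906 of the 44647 genes (2.03%), and by 441 of the 2359 shoot DEGs, 229 of them up-regulated and 212 down-regulated in shoots. The shoot values that made the calls enter this difference too, so nothing is read from that share. Of the 441, 284 had a root log2 fold change of the opposite sign, 30 were listed at 0 in all root libraries, 113 one of the same sign but smaller, and 14 a larger one, and 55 were called in the opposite direction in roots. The filter used shoot counts only, so some of the 55 had few counts in roots. TraesCS6A02G372100 had means of 0.291 normalized counts in salt-treated and 3.96 in control roots, while TraesCS5A02G389000 had 540 and 1133. The 2 comparisons share no libraries. However, the roots and shoots are described as coming from the same plants. In deviations from the group means across 38669 genes, which are not independent, each shoot library was most like the root library of its own treatment and replicate number (correlations of 0.0827 to 0.352 in salt-treated and 0.157 to 0.389 in control plants). With root and shoot of the same number as a block, a fit chosen after seeing the data, 415 of the shoot DEGs differed from roots, and 357 of these were among the 441.

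**Figure D5:**
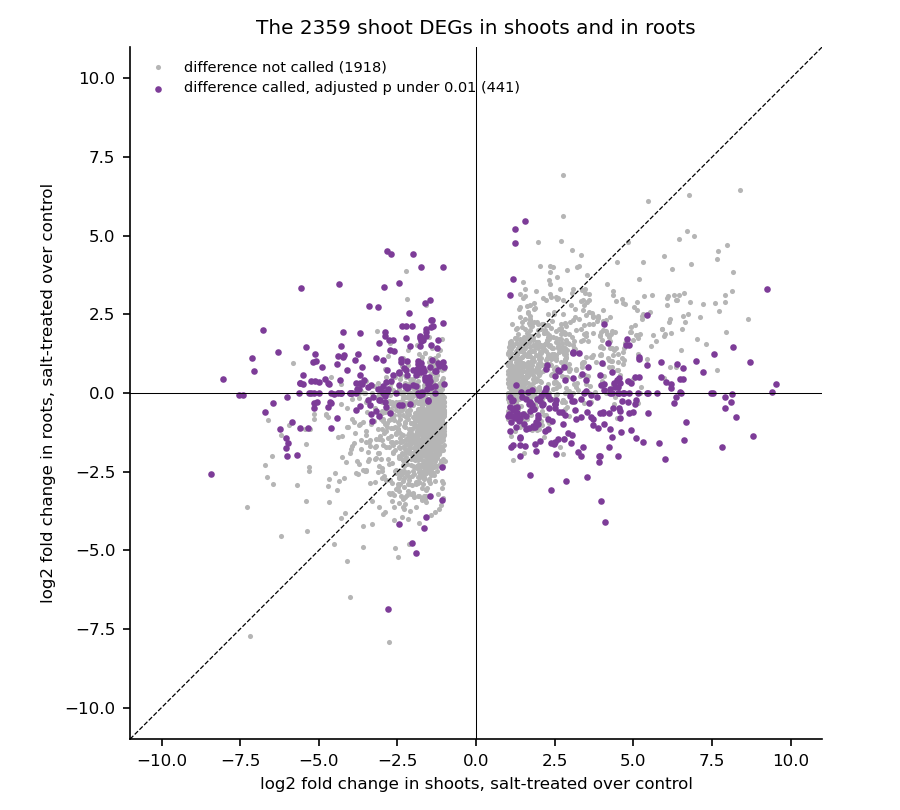
Log2 fold change under salt in shoots (horizontal axis) and in roots (vertical axis) of the 2359 shoot DEGs, with purple points for the 441 genes whose response differed between the organs and grey points for the others. Of the purple points, 284 lie in the quadrants of opposite sign, and 30 lie at 0 on the root axis because the gene was listed at 0 in every root library.

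The differences took in members of several groups above. CTP peptidase 3 TraesCS7A02G228300 had a log2 fold change of 3.91 ± 0.14 in shoots and -1.99 ± 0.32 in roots, a difference of 5.90 ± 0.45 (adjusted p = 9.42e-05). Its root level was low, with means of 4.95 normalized counts in salt-treated and 23.2 in control roots. Glutamate dehydrogenase TraesCS2A02G389900 had 1.39 ± 0.15 in shoots and -1.43 ± 0.23 in roots (adjusted p of the difference = 0.000666). Here the root means were 897 normalized counts in salt-treated and 2356 in control roots. Potassium transporter TraesCS3B02G481800 went the other way, at -1.75 ± 0.23 in shoots and 4.01 ± 0.38 in roots (adjusted p of the difference = 0.000217), where in shoots the call was lost without control replicate 3 (adjusted p = 0.0103). XTH TraesCS2A02G433500 had 4.51 ± 0.52 in shoots and -2.01 ± 0.54 in roots (adjusted p of the difference = 0.000725). SWEET TraesCS7B02G050500 had 3.65 ± 0.24 in shoots and -0.07 ± 0.24 in roots (adjusted p of the difference = 0.000217). P5CS TraesCS3B02G395900 rose in both organs, with 1.59 ± 0.32 in roots, and the larger rise was in shoots (adjusted p of the difference = 0.00609).

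Of the 8 genes that the study had picked for RT-qPCR, those not yet given include 2 that were tested and not called in shoots. The flavin monooxygenase TraesCS5A02G348400 had 40.6, 35.7 and 15 normalized counts in salt-treated shoots, against 0, 2.85 and 5.31 in control shoots (log2 fold change 3.32 ± 0.76, adjusted p = 0.0229). Lipoxygenase TraesCS2B02G333600 had 266, 1009.7 and 647 normalized counts in salt-treated shoots, against 1311, 3409.7 and 2417 in control shoots, with both groups widely spread but not overlapping (log2 fold change -1.98 ± 0.50, adjusted p = 0.0311). The SWEET gene TraesCS6A02G009100 was not tested for want of counts, at 0, 1.23 and 0 in salt-treated shoots and 9.76, 7.61 and 17.0 in control shoots. By its own test the paper lists all 8 genes as changed in shoots. It also reports RT-qPCR changes in the same direction, measured on the RNA used for sequencing.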

How the data were processed

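Per the labels, poly(A) RNA libraries of roots and shoots were made with a non-directional kit. The submitters' processing notes name FastQC 11.8, Trimmomatic 0.36 and Salmon 0.12.0. The authors summed Salmon's transcript estimates to genes of the IWGSC assembly and deposited a table of normalized counts (estimated counts divided by DESeq2 factors), a signal that is not whole reads, so no count test was run. The 4 deposited comparison tables also hold the authors' log2 fold changes, test statistics and p-values, which were not used; positions and descriptions, an other kind of column the authors deposited, were taken from them. No library column was left unused (0).

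Groups follow the labels (3 libraries each). Genes at 10 or more in at least 3 of the 6 shoot libraries were tested with limma 3.58.1 (R 4.3.3, variance trend) on log2(normalized count + 1), a scale that understates the change of low genes. P-values were adjusted by Benjamini-Hochberg over all genes tested, and DEGs passed 0.01 and moved by 1 or more on the log2 scale. An exact permutation test of 3 against 3 cannot go below p = 0.1 and was not used. P-values measure the spread between these libraries. Fold bounds divide the mean of the higher group by 3 normalized counts, taken as the level of the lower group. Figures used Python 3.11.15 and matplotlib 3.10.9, and the fit was tested on simulated data.

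Named genes were the 8 of the study's RT-qPCR list, the 10 largest increases and decreases with a description, groups that do not overlap and a mean of at least 50 in the higher group, and up to 2 per direction in each of the 37 groups; not all are printed. The members and gene groups were chosen with earlier results of these data known, and the words that sort descriptions were corrected after seeing what they matched. Alternatives were other thresholds, pseudocounts, filters and scalings, no variance trend, all 12 libraries in the fit, the replicate number as a block, each library left out and, added after seeing the data, root and shoot of the same treatment and number as a block.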

Additional observations from a re-analysis of the deposited data

Results flagged for a closer look

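The test of the difference between organs was passed by 441 of the shoot DEGs. Of the largest increases and decreases with a description and the genes of the RT-qPCR list, 12 passed it, against 2.03% of all tested genes. The largest changes were picked by shoot values that also enter the difference, so nothing is read from how many passed. Each is given with its shoot minus root difference (± SE), and some with their shoot and root log2 fold changes.

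Among up-regulated genes, dehydrin WZY2 TraesCS6A02G350700 had 8.72 in shoots and 0.98 ± 0.55 in roots, a difference of 7.74 ± 0.78 (adjusted p = 0.000321). The Rab protein gene TraesCS6B02G383500 had 7.92 and -0.12 ± 0.66, a difference of 8.03 ± 0.93 (adjusted p = 0.000691). The ABA inducible gene TraesCS1B02G381500 had 4.25 in shoots and a larger difference of 5.39 ± 0.52 (adjusted p = 0.000276), so its root value was of the opposite sign. The iron-sulfur cluster assembly gene TraesCS1B02G436500 had 3.32 ± 0.71 in roots, and its difference was 5.92 ± 1.01 (adjusted p = 0.00562). The DETOXIFICATION gene TraesCS4A02G245300 differed by 6.52 ± 1.04 (adjusted p = 0.00394), with 6.51 in shoots and -0.00 ± 0.73 in roots. P5CS TraesCS3B02G395900 had 4.20 and 1.59 ± 0.32, a difference of 2.61 ± 0.45 (adjusted p = 0.00609).

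Among down-regulated genes, MFT-3B-2 TraesCS3B02G007400 had -8.06 in shoots and 0.45 ± 0.80 in roots, a difference of -8.51 ± 1.13 (adjusted p = 0.00142). The neighbouring glucan endo-1,3-beta-glucosidase genes TraesCS3B02G524700 and TraesCS3B02G524800 differed by -6.17 ± 0.50 (adjusted p = 9.47e-05) and -6.11 ± 0.45 (adjusted p = 9.29e-05), and their root values were 0.99 ± 0.35 and 1.01 ± 0.32. Of the peroxidases, TraesCS1B02G354900 had -5.68 in shoots and differed by -3.71 ± 0.68 (adjusted p = 0.00854), so it was lower in salt-treated roots too. TraesCS5B02G405300 had -4.28 and differed by -5.78 ± 0.79 (adjusted p = 0.00175). TraesCS2B02G124800 had -4.19 and differed by -5.39 ± 0.89 (adjusted p = 0.00476). The root values of TraesCS5B02G405300 and TraesCS2B02G124800 were thus of the opposite sign. With root and shoot of the same number as a block, the adjusted p of TraesCS2B02G124800 was 0.0105, where the other 11 genes stayed under 0.01. The shoot call of TraesCS5B02G405300 was not kept with each library left out, since the call was lost without salt-treated replicate 1, 2 or 3 (adjusted p between 0.0148 and 0.0171).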

How the results depend on the processing

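The 2359 DEGs (1026 up, 1333 down) became 4572 (1813 up, 2759 down) at an adjusted p of 0.05, 1292 (663 up, 629 down) without a variance trend, 2265 (1382 up, 883 down) with each library scaled to the same total and 2296 (1195 up, 1101 down) when that total left out the 100 highest genes. Down-regulated genes made up 39.0% of the DEGs under the first scaling and 48.0% under the second, and the median of all genes was 0.19 and 0.086. Leaving out 1 library gave 873 to 1592 DEGs, 416 to 957 up-regulated and 384 to 1124 down-regulated, with 39.9% to 71.1% of them down-regulated. The genes whose response differed from roots numbered 835 at an adjusted p of 0.05 and 232 to 467 with 1 library left out. No gene value or direction was reversed. Counted over pairs of a named gene and a setting, 2754 pairs kept their side of the threshold, 476 lost it and 6 gained it. Counted by gene, 51 of 118 called genes of the naming rule were called under all settings. Why counts moved was not tested, apart from genes near 0 in one group, which the filter drops when a library of the other is left out.

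Libraries of the same replicate number did not deviate together (correlations of 0.04, 0.06 and -0.002 between salt-treated and control shoots), so they were not treated as pairs. The replicate number as a block gave 2427 DEGs (977 up, 1450 down) and 419 genes that differed from roots. With root and shoot of the same treatment and number as a block, added after seeing the data, 415 differed from roots. Depth limits the low genes, where 1 read is worth up to 1.62 normalized counts.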

Other observations

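Of the 492 DEGs with a description, 170 fell in none of the 37 groups, and several belonged to the same processes as the groups. HSA32, a protein of long-term heat tolerance in Arabidopsis and rice, rose in TraesCS7A02G451100, at 401, 475 and 233 normalized counts in salt-treated shoots, against 3.25, 8.56 and 17 in control shoots (log2 fold change 5.30 ± 0.51, limma adjusted p = 0.000611). Salt-treated replicate 3 was again the lowest of its group. Its homoeologue TraesCS7B02G351000 had 219, 249.8 and 133 normalized counts in salt-treated shoots, against 37.4, 40 and 23.3 in control shoots (log2 fold change 2.53 ± 0.31), and the call was lost without salt-treated replicate 1 (adjusted p = 0.0103). MBF1C (TraesCS7A02G369500), a coactivator that responds to heat in Arabidopsis, had 708, 756 and 492 normalized counts in salt-treated shoots, against 60.1, 43.8 and 46.5 in control shoots (log2 fold change 3.66 ± 0.22, adjusted p = 9.11e-05). Peptidylprolyl isomerases, which help proteins fold at proline bonds, rose in TraesCS2A02G277100 at 376, 790.3 and 248 normalized counts in salt-treated shoots, against 6.51, 8.56 and 18.1 in control shoots (log2 fold change 5.24 ± 0.48) and in TraesCS2B02G294500 at 1075, 1868 and 950.0 normalized counts in salt-treated shoots, against 229, 187 and 225 in control shoots (log2 fold change 2.54 ± 0.25). TraesCS2A02G277100, TraesCS2B02G294500, TraesCS7A02G369500, TraesCS7A02G451100 and TraesCS7B02G351000 were named after their values were seen.

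Other changes lay in lipid bodies, respiration and amino acid breakdown. Caleosin, a calcium-binding protein of lipid bodies, rose in TraesCS6A02G162900, at 1898, 1493 and 1727 normalized counts in salt-treated shoots, against 252, 199.9 and 236 in control shoots, with each group tight (log2 fold change 2.89 ± 0.16, adjusted p = 6.58e-05). Ubiquinol oxidase, the alternative oxidase of plant mitochondria, rose in TraesCS2A02G438200 at 1192, 1419 and 1665 normalized counts in salt-treated shoots, against 403, 270.1 and 228 in control shoots (log2 fold change 2.27 ± 0.23, adjusted p = 0.000726). Pyruvate dehydrogenase E1 subunit alpha (TraesCS7A02G238900) had 434, 426 and 396 normalized counts in salt-treated shoots, against 53.9, 73.9 and 63.6 in control shoots (log2 fold change 2.71 ± 0.18, adjusted p = 0.00013). 4-Hydroxyphenylpyruvate dioxygenase (TraesCS6B02G169700), of tyrosine breakdown and vitamin E synthesis, had 2724, 2841 and 3519.9 normalized counts in salt-treated shoots, against 623, 652 and 617 in control shoots (log2 fold change 2.25 ± 0.14, adjusted p = 0.000122). A copper transporter, TraesCS5A02G377000, had 2716, 3166 and 2744 normalized counts in salt-treated shoots, against 651, 378 and 262 in control shoots (log2 fold change 2.84 ± 0.29, adjusted p = 0.000819). Among genes that fell, a carbonic anhydrase (TraesCS7B02G354800) had 20.9, 34.5 and 30 normalized counts in salt-treated shoots, against 411, 336 and 259.6 in control shoots (log2 fold change -3.52 ± 0.26, adjusted p = 0.000198). An aldehyde dehydrogenase (TraesCS6B02G284600) had 86.2, 97.1 and 80.1 normalized counts in salt-treated shoots, against 638, 567 and 443 in control shoots (log2 fold change -2.62 ± 0.18, adjusted p = 0.000176). TraesCS2A02G438200, TraesCS5A02G377000, TraesCS6A02G162900, TraesCS6B02G169700, TraesCS6B02G284600, TraesCS7A02G238900 and TraesCS7B02G354800 were named after their values were seen.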
